A study of Mus musculus with 8 samples.

Results

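Erythroid transcripts were followed in the livers of male mice 8 h after acetaminophen. The genes were Hba-a1, Hba-a2, Hbb-b1, Hbb-bs, Alas2, Slc4a1 and Ahsp, 7 in all. A probe was taken for a gene when the array files gave that gene's name, which found 7 probes for 6 of the 7 genes, among 56605 probes for 36666 gene names. No probe carried the name Hbb-bs. Of the 6 genes, 5 were bright enough to be tested, and Ahsp was not. Total liver RNA of 4 samples from mice aged 80 weeks and 4 from mice aged 8 weeks was hybridised to 1-colour Agilent arrays, 1 sample to an array, and all 8 came from mice given the drug. The sources used here give neither the strain nor the dose, and do not say that every array had its own animal. The p-values therefore measure only how far these samples spread, which may be technical. Livers 1 to 4 of an age are named below only for their replicate numbers. Untreated livers were not analysed here.

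Red cell precursors fill themselves with haemoglobin, a tetramer of alpha and beta globin chains that each hold a heme. Before birth the mouse liver is the main site where red cells form, and in the adult this takes place in bone marrow and spleen, so erythroid RNA in adult liver usually comes with the blood in the vessels, chiefly from reticulocytes, the youngest circulating red cells. Hba-a1 and Hba-a2 encode alpha globin, and Hbb-b1 and Hbb-bs encode adult beta globin in different mouse haplotypes. Alas2 makes the erythroid enzyme that starts heme synthesis, Slc4a1 is band 3, the anion exchanger of the red cell membrane, and Ahsp is a chaperone that binds free alpha globin.

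The probe sequences show which transcripts each signal can hold. The array has 2 probes named Hba-a1 and 1 named Hba-a2, and all 3 list RefSeq accessions of both genes. The Hba-a2 probe and the probe near the 3′ end of Hba-a1 share 59 of their 60 bases, so they read the same transcripts and the signals of these 2 genes cannot be told apart. Their first 30 bases are given here with the shared bases in capitals, from chr11:32184427-32184456 and chr11:32197245-32197274 on the plus strand of build mm9, followed by the whole of the second, inner Hba-a1 probe at chr11:32183955-32184014.
Hba-a1 3′ probe: cTTCTTCTCTCCCTTGCACCTGTACCTCTT
Hba-a2 probe: TTCTTCTCTCCCTTGCACCTGTACCTCTTG
Hba-a1 inner probe: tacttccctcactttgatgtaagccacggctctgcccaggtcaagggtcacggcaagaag

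The single Hbb-b1 probe lists accessions of both Hbb-b1 and Hbb-bs and lies at the 5′ end of the transcript. Its first 46 bases matched the transcript start of Hbb-bs in RefSeq (GRCm38.p6) at 46 of 46 positions, whereas 45 of its bases set against the start of Hbb-bt, the neighbouring beta globin gene, differed at 7. Hbb-bs therefore had no probe of its own but is listed under the Hbb-b1 probe, and values given as Hbb-b1 below may be of either gene. The last 30 bases of that probe lie at chr7:110976379-110976408 on the minus strand (mm9), with the start codon in capitals.
Hbb-b1 probe: aaccccagaaacagacatcATGgtgcacct

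The Alas2 probe lies at chrX:147004993-147005052 on the plus strand and the Slc4a1 probe at chr11:102210256-102210315 on the minus strand (mm9). The files give no position for the Ahsp probe. Of the 7 genes, 4 had a promoter entry in RefSeq (Hba-a1, Hba-a2, Hbb-bs and Alas2).

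Before the results, the arrays themselves need a description. Each array's signals were expressed as log2 over that array's 75th percentile, which ran from 154.7 to 264.8 intensity units on the 80-week arrays and from 178.2 to 352.8 on the 8-week arrays. A probe counted as above background by the scanner software's own flag, which 43.3% to 50.4% of probes passed on each array. Replicates 1 and 2 of the 8-week group stood apart from all other arrays. On the first principal component, which held 49.1% of the variance, the 80-week arrays lay between 17.0 and 47.5 and 8-week replicates 3 and 4 at 10.2 and 12.3, but 8-week replicates 1 and 2 lay at -61.3 and -99.2. Differences are therefore given over all arrays and again without those 2. The 80-week arrays filled 1 row of the slide and the 8-week arrays the other, so age and slide row cannot be told apart. All 10 hepatocyte markers examined, among them albumin, were bright enough to be tested.

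No erythroid gene passed the test of a difference between the ages. In limma's fit over 17565 genes, 0 of the 5 tested erythroid genes passed an adjusted p of 0.05, against a background of 0.359% of all genes tested, and 0 of the 5 had an unadjusted p under 0.05, against 14.1% of all genes. The log2 difference, 80-week minus 8-week, was negative for 4 of the 5, with a median of -0.68, beside a median of 0.02 over all genes. Hba-a1 and Hba-a2, whose signals cannot be told apart, count as 2 of the 5 throughout, and that median is the Hba-a1 value itself. The median of the 5 was -0.20 without 80-week replicate 1 and -0.44 without 8-week replicate 1. Without 8-week replicates 1 and 2 together it was 0.061, with 3 of the 5 differences positive, and again 0 of the 5 passed. Among the positive ones was Slc4a1, then without any 8-week array above background. A negative difference was found for 48.0% of all genes. In 0 of the 5 were the age groups free of overlap, against 8.38% of all genes. In whole liver RNA, fewer erythroid cells and less erythroid RNA per cell cannot be told apart.

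Alpha globin was measured best, with 10 spots for each of its probes. The spots of 1 probe on 1 array varied by 0.994% to 10.1% of their mean, far less than the arrays differed from each other. On the 3′ probe of Hba-a1 the log2 signal was 7.03, 9.40, 9.37 and 8.05 in the 80-week livers 1 to 4 and 9.83, 9.19, 8.77 and 8.76 in the 8-week livers 1 to 4. The highest value was that of 8-week liver 1 and the lowest that of 80-week liver 1, and 80-week livers 2 and 3 lay inside the 8-week range. Means were 8.46 ± 1.14 in 80-week and 9.14 ± 0.51 in 8-week livers (SD, n = 4 each), a difference of -0.68 (SE 0.52, limma adjusted p = 0.554). Without 8-week livers 1 and 2 the difference was -0.30, with a 95% interval of -1.92 to 1.32.

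Hba-a2 gave nearly the same picture, with 6.96, 9.28, 9.27 and 7.96 in the 80-week livers and 9.65, 9.04, 8.68 and 8.68 in the 8-week livers. The difference was -0.65 (SE 0.51, limma adjusted p = 0.561), or -0.32 without 8-week livers 1 and 2, and the groups overlapped in the same way. The inner probe of Hba-a1 did not follow the 3′ probe on every array. It gave 5.23, 7.93, 7.89 and 6.39 in the 80-week livers and 9.20, 9.16, 6.96 and 7.02 in the 8-week livers, so that here 8-week livers 1 and 2 stood above all others and 8-week livers 3 and 4 lay within the 80-week range. Its difference was -1.22 (SE 0.74, limma adjusted p = 0.452 over all 25738 probes tested), and -0.13 without 8-week livers 1 and 2. The SD of the array-by-array difference between both Hba-a1 probes was 0.65 on the log2 scale, against 0.04 between the 3′ probe and the Hba-a2 probe. The 3′ probe ranked 14th and 11th by signal on 8-week arrays 1 and 2, and no spot on any array was marked as saturated. Whether a narrowed response of bright spots plays a part in this was not tested.

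Beta globin spread more widely. Hbb-b1, read by 1 spot, had 1.93, 4.65, 4.82 and 2.81 in the 80-week livers and 6.15, 6.14, 3.42 and 3.56 in the 8-week livers. The 2 highest values were those of 8-week livers 1 and 2, the 2 lowest those of 80-week livers 1 and 4, and 8-week livers 3 and 4 fell between. Means were 3.55 ± 1.41 in 80-week and 4.82 ± 1.53 in 8-week livers (SD, n = 4 each), a difference of -1.27 with a 95% interval of -3.17 to 0.63 (SE 0.85, limma adjusted p = 0.494). Between the highest and the lowest array lay an 18.6-fold range, and the within-group SD of 1.47 was larger than that of 99.5% of the genes tested. Without 8-week livers 1 and 2 the difference turned to 0.06, with an interval of -1.93 to 2.05.

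Band 3 and the alpha globin chaperone were not above background on every array. Slc4a1 had -3.73, -3.08, -0.21 and -2.34 in the 80-week livers and 1.93, 0.54, -3.04 and -2.86 in the 8-week livers, and was above background only on 80-week arrays 3 and 4 and 8-week arrays 1 and 2. Its difference was -1.49 (SE 1.17, limma adjusted p = 0.562) with 2 arrays in each group not above background. Without 8-week livers 1 and 2 it turned to 0.60, with an interval of -1.55 to 2.76, but no 8-week array left was above background. Ahsp was above background on 3 arrays, 80-week 3 and 8-week 1 and 2, and so was not tested. It had -3.34, -5.07, -0.55 and -5.12 in the 80-week livers and 1.70, -0.32, -5.12 and -4.98 in the 8-week livers. The 3 arrays on which Ahsp was detected were the 3 with the highest Slc4a1 signal.

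Alas2 varied less between arrays than the globins. It was above background on all 8 arrays and had 4.39, 4.85, 4.83 and 4.25 in the 80-week livers and 4.88, 4.59, 3.75 and 4.22 in the 8-week livers. The array range was 2.18-fold, and 8-week liver 3, the lowest, and 8-week liver 1, the highest, belonged to the same group. Means were 4.58 ± 0.31 in 80-week and 4.36 ± 0.49 in 8-week livers (SD, n = 4 each), a difference of 0.22 (SE 0.27, limma adjusted p = 0.723). Without 8-week livers 1 and 2 the difference was 0.59, with an interval of -0.0044 to 1.19 and an adjusted p of 0.553. Its within-group SD of 0.41 was near the middle of all genes, larger than that of 54.4% of them.

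**Figure D1:**
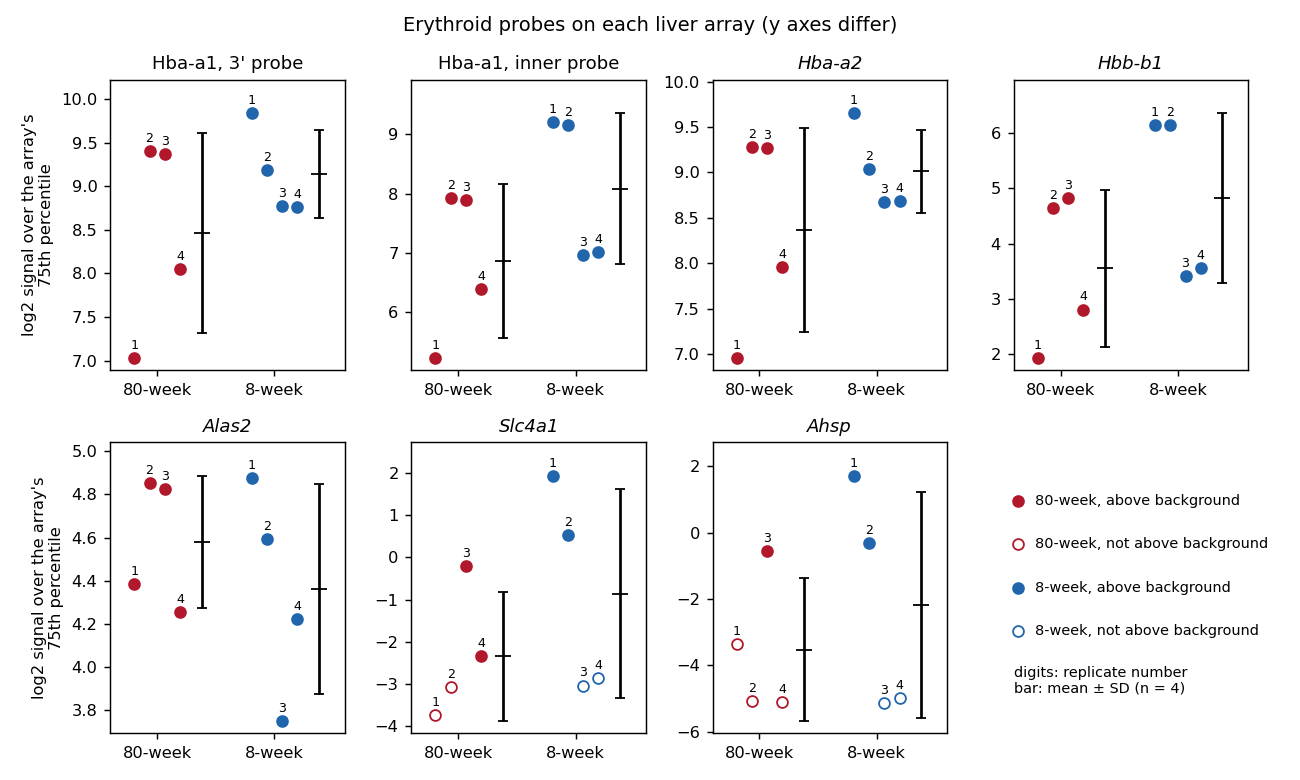
Log2 signal over the array's 75th percentile (y axis, scaled separately in each panel) for each erythroid probe in 80-week and 8-week livers, with replicate numbers at the points and the mean ± SD beside them (n = 4 each). Open points are not above background. In the beta globin panel 8-week livers 1 and 2 lie at 6.15 and 6.14 and 80-week liver 1 at 1.93, and in every panel the groups overlap.

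**Figure D2:**
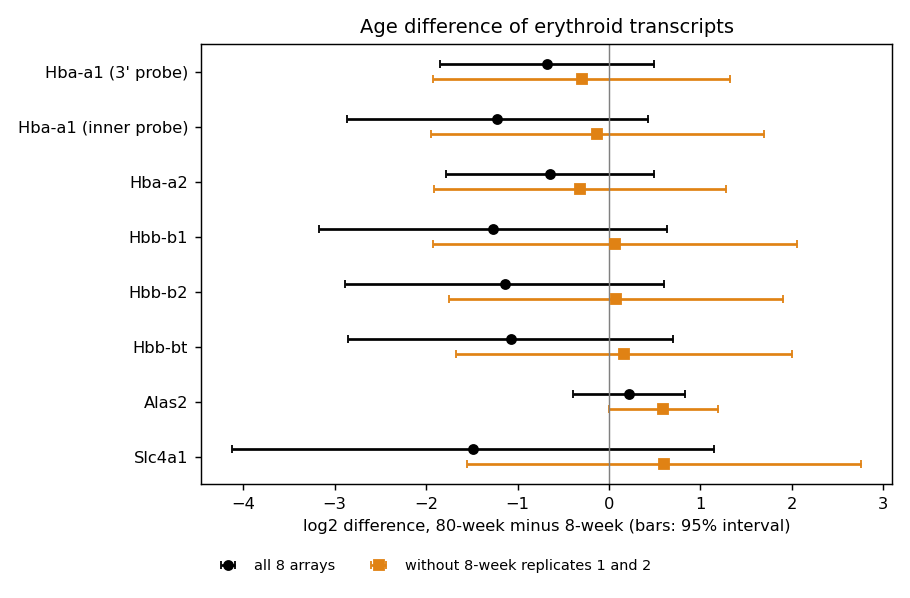
Log2 differences, 80-week minus 8-week, with 95% intervals from limma (x axis) for the tested erythroid probes and for the adult beta globin genes Hbb-b2 and Hbb-bt, over all 8 arrays (black circles) and without 8-week replicates 1 and 2 (orange squares). With all arrays 7 of the 8 estimates lie below 0 and every interval reaches across 0. Without those 2 arrays Hbb-b1, Hbb-b2, Hbb-bt and Slc4a1 lie above 0, as Alas2 does with both.

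Over the 8 arrays the erythroid probes rose and fell together to different degrees, which is given here as a description without a test, since all values of 1 array share its RNA and its scaling. The Pearson correlation between Hbb-b1 and the inner Hba-a1 probe was 0.995 (Spearman 0.976, n = 8 arrays), and 0.987 over the 6 arrays other than 8-week 1 and 2. Slc4a1 followed Hbb-b1 with r = 0.863 (Spearman 0.786), and r = 0.626 over those 6 arrays. On most of those 6 arrays Slc4a1 was not above background. Alas2 followed Hbb-b1 with r = 0.628 (Spearman 0.690), and r = 0.551 over the 6. With the 3′ probe of Hba-a1 its correlation was 0.505 (Spearman 0.762). Within age groups, its correlation with the mean of the 5 tested genes, itself included, was 0.881, beside 0.886 for Hba-a1 and 0.873 for Hba-a2. A mean profile was taken over the 5 tested genes after centring each, so the alpha globin signal entered it under 2 names. The genes were not scaled to equal spread. Slc4a1, with the largest within-group SD of the 5 (2.06), therefore weighed most, although it was not above background on every array. The profile was -1.59, 0.11, 0.70 and -0.76 in the 80-week livers and 1.58, 0.99, -0.59 and -0.44 in the 8-week livers. Both age groups thus held arrays below and above the mean.

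Genes outside the list were ranked by their Pearson correlation with that mean profile over the 8 arrays. Of 17565 genes, the most alike were Hbb-bt (r = 0.996) and Hbb-b2 (r = 0.993), both adult beta globins, and the Hbb-b2 probe lists an accession of Hbb-b1 as well. Also among the 8 most alike were Traf4, a signalling adaptor of TNF receptors (r = 0.987), and Bpgm, the red cell enzyme that makes 2,3-bisphosphoglycerate (r = 0.976). Zdhhc22, Scgb2b20 and a probe for an alpha globin pseudogene (ENSMUST00000128900.1) had 0.968, 0.964 and 0.960. Within age groups, after taking out each group's mean, the correlations of these 7 genes lay between 0.960 and 0.995. Over the 6 arrays other than 8-week 1 and 2 they lay between 0.920 and 0.994.

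Hbb-bt, the adult beta t chain, had 4.72, 7.10, 7.68 and 6.03 in the 80-week livers and 8.94, 8.45, 6.21 and 6.23 in the 8-week livers. The order of the 8 arrays was that of the mean profile, with 80-week liver 1 lowest and 8-week liver 1 highest. The difference was -1.08 (SE 0.79, limma adjusted p = 0.532), and 0.16 without 8-week livers 1 and 2. Hbb-b2, the beta minor chain, likewise differed by -1.14 (SE 0.78, limma adjusted p = 0.502) and by 0.07 without those arrays. The embryonic globin genes Hbb-bh1, Hbb-bh2, Hbb-y and Hba-x and the theta globin gene Hbq1a were above background on 0 of the 8 arrays.

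The promoters of 3 globin genes and of Alas2 are shown because the correlations above set their transcripts side by side. Any signal of Hbb-bs would be read by the Hbb-b1 probe, which lists both genes and may hold either. Each stretch covers the 250 bases before the RefSeq transcript start (GRCm38.p6), written in the direction of transcription. Capitals mark matches on either strand to GATAA, the core that GATA factors bind, CACCC, bound by erythroid Krüppel-like factors, TATAA, the TATA box, and CCAAT. The positions are chr11:32283422-32283671 (plus strand) for Hba-a1, chr7:103827929-103828178 (minus strand) for Hbb-bs, chr7:103813924-103814173 (minus strand) for Hbb-bt and chrX:150547167-150547416 (plus strand) for Alas2.
Hba-a1: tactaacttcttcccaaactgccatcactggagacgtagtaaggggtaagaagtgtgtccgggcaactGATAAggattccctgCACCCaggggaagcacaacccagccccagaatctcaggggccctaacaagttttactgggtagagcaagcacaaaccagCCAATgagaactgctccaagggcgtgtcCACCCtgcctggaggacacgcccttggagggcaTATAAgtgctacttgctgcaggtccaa
Hbb-bs: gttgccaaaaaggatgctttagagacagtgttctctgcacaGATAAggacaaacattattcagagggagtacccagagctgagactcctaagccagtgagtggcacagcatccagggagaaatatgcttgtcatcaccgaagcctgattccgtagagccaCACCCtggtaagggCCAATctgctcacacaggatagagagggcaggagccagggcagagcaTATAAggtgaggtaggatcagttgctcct
Hbb-bt: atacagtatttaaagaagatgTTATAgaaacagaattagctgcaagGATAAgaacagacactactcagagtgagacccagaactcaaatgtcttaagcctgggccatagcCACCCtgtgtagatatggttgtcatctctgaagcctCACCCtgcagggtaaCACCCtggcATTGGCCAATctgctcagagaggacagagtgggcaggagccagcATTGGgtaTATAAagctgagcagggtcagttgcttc
Alas2: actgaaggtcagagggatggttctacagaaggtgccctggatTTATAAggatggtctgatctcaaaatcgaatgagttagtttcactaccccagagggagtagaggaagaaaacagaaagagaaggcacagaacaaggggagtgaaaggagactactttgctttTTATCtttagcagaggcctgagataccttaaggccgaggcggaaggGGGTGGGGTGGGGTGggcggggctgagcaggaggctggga

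Each of the 3 globin promoters held a TATAA 27 to 29 bases before the start, a CCAAT on the plus strand 75 to 88 bases before it, and 1 GATAA, at 182 bases in Hba-a1, 209 in Hbb-bs and 204 in Hbb-bt. CACCC occurred 2, 1 and 3 times in Hba-a1, Hbb-bs and Hbb-bt. Alas2 held 1 GATAA on the minus strand at 86 bases and 3 CACCC on the minus strand at 30 to 40 bases. It had no CCAAT, and its TATAA matches, 2 overlapping ones on opposite strands, lay 207 and 208 bases before the start. These letters are common: of 32851 promoter windows of the same length, 22.6% held GATAA, 52.0% CACCC, 22.8% TATAA, 33.8% CCAAT, and 10.1% both GATAA and CACCC. In Hbb-bt a CCAAT and its reverse complement lie next to each other. The Hba-a1 and Hba-a2 entries shared an unbroken run of 297 of 300 bases.

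Other genes of the red cell lineage were examined in 5 lists, which held 72 genes, 71 of them on the array and 47 bright enough to be tested. Of these 47, 0 passed an adjusted p of 0.05 in limma's fit, against the background of 0.359%, and 9 had an unadjusted p under 0.05, against 14.1% of all genes. Their median difference was 0.07. Of the 77 erythroid genes on the array, counting those described above, 6 had a probe above background on 8-week arrays 1 and 2 and on no other array, a pattern shown by 1.07% of all probes and by at least 1 probe of 1.6% of all gene names. They included the red cell membrane and skeleton genes Rhd, Ank1 and Dmtn, the erythroid transcription factor Gata1 and Trim10, which were chosen after their values were seen. Gata1 had -4.68, -4.62, -5.16 and -5.44 in the 80-week livers and -2.07, -3.49, -5.09 and -5.00 in the 8-week livers. The 2 arrays are those with the highest Hbb-b1 signal. A second Rhd probe was also above background on 80-week array 1, another Ank1 probe on 80-week array 2, and a brighter Dmtn probe on all 8 arrays.

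Among 7 tested membrane and skeleton genes, 0 passed the threshold and the median difference was 0.05. Tspo2, an erythroid membrane protein of cholesterol handling, differed by -0.69 (SE 0.47, limma adjusted p = 0.503), and Icam4, a red cell adhesion protein, by -0.60 (SE 0.35, adjusted p = 0.441). Gypc, glycophorin C, differed by 0.55 (SE 0.33, adjusted p = 0.457). Without 8-week arrays 1 and 2 the differences were 0.11 for Tspo2, -1.03 for Icam4 and 0.34 for Gypc. Only Tspo2 of these 3 had both of its highest values in 8-week livers 1 and 2.

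In the late erythroid and reticulocyte list, 0 of 13 tested genes passed. Over all arrays 8 differences were negative and 5 positive, up to 0.47, with a median of -0.11. Of the 4 genes of smallest p, Car1 and Mxi1 differed by 0.47 and 0.33 (limma adjusted p = 0.422 and 0.421). Without 8-week arrays 1 and 2 they differed by 0.78 and 0.14. The other genes named from this list are all among the negative ones. Without 8-week arrays 1 and 2, 8 of the 13 were positive and the median was 0.10. Both lowest values fell on 8-week arrays 1 and 2 for 1 of the 13, against 22.4% of all genes. Both highest values fell on them for 5 of the 13, against 15.9% of all genes. Besides Bpgm, these included Ube2o, the ubiquitin ligase that clears proteins from reticulocytes, with 1.96, 2.50, 2.41 and 2.56 in the 80-week livers and 3.85, 3.74, 2.46 and 2.25 in the 8-week livers. Car2, carbonic anhydrase 2, had -2.33, -1.74, -0.63 and -1.07 in the 80-week livers and 1.44, 0.75, -1.81 and -1.29 in the 8-week livers. Ube2o differed by -0.72 (limma adjusted p = 0.411) and Car2 by -1.21 (adjusted p = 0.442), or by 0.00060 and 0.11 without 8-week arrays 1 and 2.

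The transcription factor and progenitor list gave 0 of 10 and a median of 0.03, with 6 positive and 4 negative differences. Lyl1, a haematopoietic helix-loop-helix factor, had -1.56, -1.67, -3.17 and -2.41 in the 80-week livers and 0.24, 0.51, -1.55 and -1.82 in the 8-week livers (difference -1.55, SE 0.58, limma adjusted p = 0.306). Nfe2, a globin locus activator shared with megakaryocytes, differed by -1.17 (adjusted p = 0.413), and Kit, the stem cell factor receptor, by -0.72 (adjusted p = 0.305). Sox6, a repressor of embryonic globin, differed by 0.97 (adjusted p = 0.288). Without 8-week arrays 1 and 2 the differences were -0.52 for Lyl1, -0.20 for Nfe2, -0.57 for Kit and 0.45 for Sox6. The whole list then had 1 positive and 9 negative differences, with a median of -0.22.

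Heme synthesis and iron uptake genes mostly had differences of the opposite sign to the globins. Of 15 tested, 0 passed the threshold, 12 differences were positive and 3 negative, against 48.0% negative over all genes, and the median was 0.39. An unadjusted p under 0.05 was found for 6 of the 15, against 14.1% of all genes. Both lowest values fell on 8-week arrays 1 and 2 for 9 of the 15, against 22.4% of all genes. Alad, the second enzyme of the pathway, had 4.85, 5.14, 5.54 and 5.44 in the 80-week livers and 4.23, 3.91, 4.68 and 4.92 in the 8-week livers (difference 0.81, SE 0.27, limma adjusted p = 0.279). The mitochondrial transporter Abcb10 had 1.28, 1.31, 1.99 and 1.99 in the 80-week livers, all above the 0.70, 0.81, 0.88 and 1.18 in the 8-week livers (difference 0.75, limma adjusted p = 0.264). Hepatocytes make heme too, so most of this list is not particular to red cells. The mitochondrial iron importer Slc25a37, strongly used by erythroid cells, was among the 3 with a negative difference, with 2.14, 3.30, 2.49 and 2.58 in the 80-week livers and 5.08, 4.14, 2.90 and 3.02 in the 8-week livers (difference -1.16, SE 0.48, limma adjusted p = 0.338). Tfrc, the transferrin receptor, differed by -0.54 (adjusted p = 0.279) with no overlap between the ages. Without 8-week arrays 1 and 2 the median of the 15 was 0.07, with 9 positive, and the differences were 0.44 for Alad, 0.61 for Abcb10, -0.33 for Slc25a37 and -0.51 for Tfrc.

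Signals that govern red cell formation and iron supply were read in 14 tested genes, of which 0 passed the threshold. Both lowest values fell on 8-week arrays 1 and 2 for 6 of the 14, against 22.4% of all genes. Both highest values fell on them for 1 of the 14, against 15.9% of all genes. Epo and Erfe, the hormones of erythropoietic drive and of erythroid iron demand, were above background on 0 arrays. Hamp, hepcidin, the liver hormone that blocks iron export, was chosen for naming after its values were seen. It had 7.72, 7.35, 7.97 and 7.31 in the 80-week livers and 3.27, 4.01, 7.88 and 7.86 in the 8-week livers. The 2 low values were those of 8-week livers 1 and 2, and the other 6 arrays lay between 7.31 and 7.97. Its difference was 1.83 (SE 1.00, limma adjusted p = 0.419), and -0.29 without those arrays. Hamp2, in the same list, differed by -1.43 (limma adjusted p = 0.400), or by -2.37 without those arrays. Hjv, the BMP co-receptor needed for hepcidin expression, had 0.67, 0.46, 0.47 and 0.95 in the 80-week livers and -1.97, -3.93, 0.33 and 0.41 in the 8-week livers (difference 1.93, SE 0.85, limma adjusted p = 0.355, or 0.27 without 8-week livers 1 and 2). Atoh8, a BMP-responsive factor, differed by 1.15 (adjusted p = 0.318) and was likewise lowest in 8-week livers 1 and 2, without which it differed by 0.28. Kitl, the ligand of Kit, differed by -1.34 (adjusted p = 0.245) without overlap between the ages, and Smad7, an inhibitor of BMP signalling, by -0.61 (adjusted p = 0.362). Without those 2 livers Kitl differed by -1.11 and Smad7 by -0.21.

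**Figure D3:**
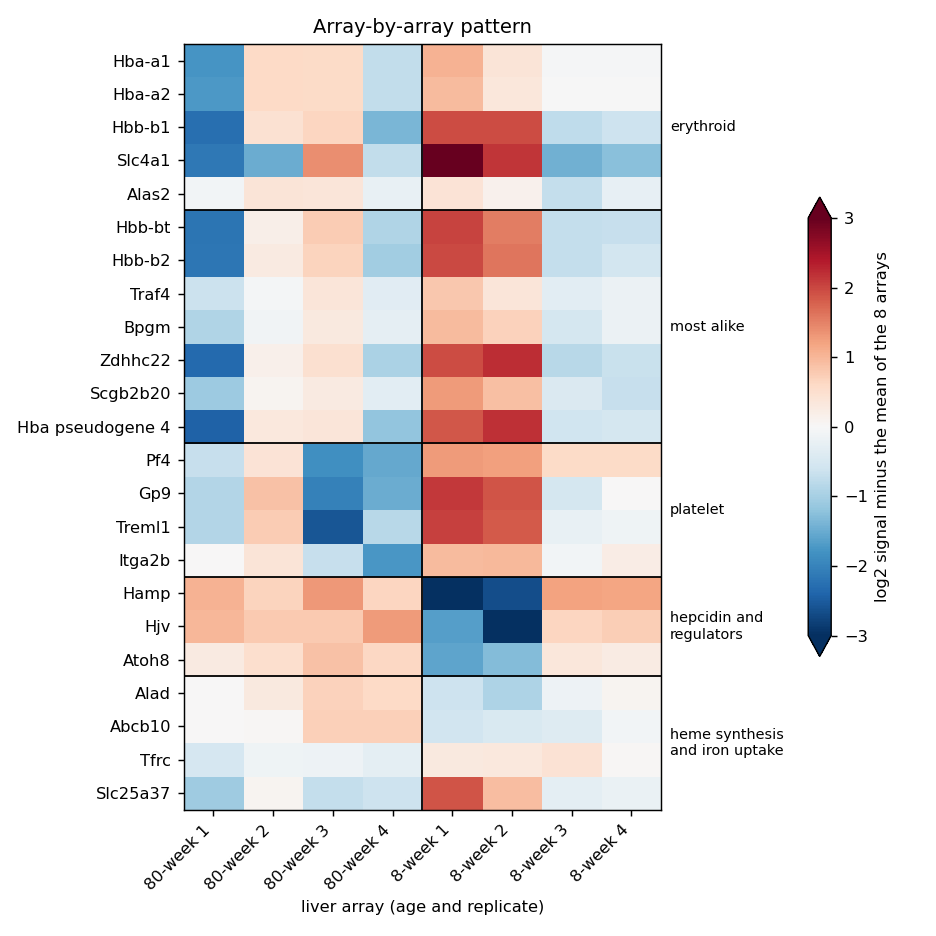
Log2 signal minus the mean of the 8 arrays (colour, cut at 3 in either direction) for each gene (rows) on each 80-week and 8-week array (columns). Beta globin, Slc4a1 and the platelet genes are highest on 8-week arrays 1 and 2, where Hamp, Hjv and Atoh8 are lowest, and globins are lowest on 80-week array 1. Alas2 varies less than the globins, by at most 0.72 from its mean, and so looks pale on this colour scale.

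Haemoglobin and heme clearance genes gave 0 of 11 past the threshold, a median of -0.16 and 4 genes without overlap, against 8.38% of all genes. Spic, the factor of heme-exposed macrophages, had 0.31, -1.09, -1.20 and -0.53 in the 80-week livers and 1.04, 1.38, 0.33 and 0.60 in the 8-week livers (difference -1.47, SE 0.37, limma adjusted p = 0.167). Slc48a1, which carries heme out of lysosomes, differed by -0.99 (adjusted p = 0.173), and Slc40a1, ferroportin, the iron exporter, by -0.97 (adjusted p = 0.294). Lrp1, the receptor for heme bound to hemopexin, differed by 0.74 (adjusted p = 0.173). All 4 were without overlap between the ages, although Spic in 80-week liver 1 lay just below its lowest 8-week value. Without 8-week arrays 1 and 2 the differences were -1.09 for Spic, -0.64 for Slc48a1, -0.50 for Slc40a1 and 0.52 for Lrp1.

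Markers of other blood cells were read beside the globins. All 6 tested platelet genes had both highest values on 8-week arrays 1 and 2, against 15.9% of all genes, and 0 of the 6 passed the threshold. Their median difference was -1.51, and -0.63 without those arrays. The summed linear level of the 10 platelet genes on the array, each read from its brightest probe, ran from 2.71 to 13.95 on the 80-week arrays and from 11.1 to 23.7 on the 8-week arrays, in multiples of the array's 75th percentile. That of the 6 erythroid genes with probes ran from 279.9 to 1350 on the 80-week arrays and from 869.9 to 1823 on the 8-week arrays. This erythroid sum mostly reads alpha globin, which enters it under 2 names. On 8-week array 1 the log2 signals were 9.83 for Hba-a1 and 9.65 for Hba-a2, against 6.15 for Hbb-b1. Pf4, platelet factor 4, had 1.66, 2.77, 0.50 and 0.83 in the 80-week livers and 3.63, 3.57, 2.92 and 2.94 in the 8-week livers (difference -1.83, SE 0.46, limma adjusted p = 0.168). Without 80-week liver 2 alone, Pf4 passed the threshold, with a difference of -2.27. Gp9, Treml1 and Itga2b differed by -1.76, -1.77 and -1.02, with adjusted p of 0.345, 0.345 and 0.355 in the same fit. Without 8-week arrays 1 and 2 the differences were -1.49 for Pf4, -0.63 for Gp9, -0.71 for Treml1 and -0.58 for Itga2b. Platelet and globin signal did not share the whole order, since 80-week liver 3 had the lowest Pf4 and the highest Hbb-bt of its group.

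Neutrophil genes gave 0 of 9 past the threshold, with 3 positive and 6 negative differences, a median of -0.13, 1 of the 9 highest on both of 8-week arrays 1 and 2, and a summed level of all 12 genes on the array of 122.9 to 266.3 on the 80-week arrays and 181.9 to 256.3 on the 8-week arrays. The smallest p were those of Cxcr2, which differed by -1.47 (limma adjusted p = 0.359), and Mmp8, by -1.06 (adjusted p = 0.385), or by -0.88 and -0.73 without 8-week arrays 1 and 2. Lymphocyte genes gave 0 of 5 past the threshold, led by Cd2 with a difference of 1.22 (adjusted p = 0.226), or 0.93 without those arrays. Kupffer cell and macrophage genes gave 0 of 9, among them Vsig4 with 0.36 (adjusted p = 0.438), or 0.40 without them. Hepatocyte genes gave 0 of 10, with 7 positive and 3 negative differences, a median of 0.07, and 9 of the 10 lowest on 8-week array 1 or 2, against 48.2% of all genes. Cps1, of urea synthesis, which had the smallest p of the 10, differed by -0.69 (adjusted p = 0.406), or -1.33 without those arrays, when all 10 differences were negative with a median of -0.21. What part blood content, liver injury or RNA of other cells has in the erythroid pattern was not tested.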

How the data were processed

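Total liver RNA of 8 samples was measured on 1-colour Agilent arrays, on 1 slide in 1 scan per the file headers. The deposited scanner files carry spot intensity after the background correction of Feature Extraction 10.7.3.1, per the file headers. Version 9.1 of Agilent Feature Extraction stands in the submitters' processing notes. A deposited table of intensity from the same arrays matched the scanner signal within 1% on 100% of 56605 probes and served as an alternative. With values so nearly the same, that alternative was no separate check of the result. It held 0 columns of other samples.

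From the processed signal, spots that the scanner software marked as outliers were dropped, 59 to 97 on an array. The rest were averaged by probe, and the array's 75th percentile was subtracted on the log2 scale. Testing required a probe to be above background on 4 arrays or more. A gene was read from its brightest tested probe, which left 17565 genes. The 2 ages were compared by lmFit and eBayes of limma 3.58.1 (R 4.3.3), with Benjamini-Hochberg adjustment over all genes, with a threshold of 0.05. The script was tested on simulated data. The number of arrays limits the precision.

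The erythroid genes, the other lists and the settings were chosen with earlier results of these data known. Named genes are the 7 erythroid genes, in each list the 4 or fewer tested genes of smallest p, and the 8 most alike in array profile. The rule gave 59 genes, and alternatives were computed for the 46 tested genes that the text and the plots name. Some genes are not reported here. The replicate numbers of the 2 ages did not pair the samples. Alternatives were other scalings and background corrections, other filters, the mean of a gene's probes, array weights, the deposited table, a replicate block and omission of arrays.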

Additional observations from a re-analysis of the deposited data

Results flagged for a closer look

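For 46 of the genes named in the text, 92 groups of 4 arrays were examined. Of these groups, 3 (3.26%) held an array far from the other 3 by Dixon's ratio, where chance gives about 5%. Dmtn, the red cell skeleton protein dematin, lay at 6.85 in 80-week liver 1, against 6.42 in the nearest of the other 80-week livers. A second, dimmer Dmtn probe was above background only on 8-week arrays 1 and 2, where the brighter one had its lowest values, 6.05 and 4.91. S100a8 and S100a9, a pair of neutrophil calcium-binding proteins, lay at 4.94 and 6.83 in 8-week liver 2, against 3.94 and 5.95 in the nearest of the other 8-week livers. None of the 5 tested erythroid genes held such an array.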

How the results depend on the processing

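Under all 19 alternatives, 0 erythroid genes passed the threshold, and 0 of the other erythroid genes. The median difference of the erythroid genes was -0.68. It was -0.97 over 6 genes with no filter on dim probes, -0.95 with the mean of a gene's probes and -0.78 with median scaling. With 8-week replicates 1 and 2 omitted together it was 0.061, and with array weights 0.0883. Leaving out 1 array gave medians of -0.99 to -0.20, the smallest without 80-week replicate 1. Without those 2 arrays the difference turned sign for Hbb-b1 (0.061), Slc4a1 (0.60), Hbb-b2 (0.0724), Hbb-bt (0.16), Tspo2 (0.11), Dmtn (-0.37), Ube2o (0.00060), Car2 (0.11), Hamp (-0.29), Traf4 (0.0811), Bpgm (0.10), Zdhhc22 (0.0891) and Scgb2b20 (0.31). With array weights it turned for Hbb-b1 (0.0883), Slc4a1 (0.33), Hbb-b2 (0.0944), Hbb-bt (0.17), Tspo2 (0.0061), Dmtn (-0.29), Traf4 (0.0717), Bpgm (0.0924), Zdhhc22 (0.0801) and Scgb2b20 (0.24). The cause was not tested. For every gene listed as turned without 8-week replicates 1 and 2, those arrays held its 2 highest or 2 lowest 8-week values. The direction of its shift was thus fixed once they were dropped. Only replicates 3 and 4 then remained in the 8-week group. Over all genes the count past the threshold, 63, became 21 when a probe had to be above background on all 8 arrays, 172 with array weights, 14 without 8-week replicates 1 and 2, and 27 to 77 with 1 array left out (27 without 8-week replicate 1, 38 and 39 without 80-week replicates 3 and 4). Among the 46 genes for which alternatives were computed, leaving out 1 array turned the sign for Dmtn alone. The Dmtn values ran from -0.10 (without 8-week replicate 2) to 0.59. With the replicate number as a block the count was 70 and 0 erythroid genes passed. Same-numbered samples deviated together with r of 0.03 to 0.14 and 2 of 4 samples matched their own number best, so the numbers were not taken as a pairing. Slc4a1 was above background on 4 arrays and Ahsp on 3, which limits their values.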
